A study of Mus musculus with 38 samples.

Results

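The Th2 cytokine locus of the mouse lies on chromosome 11 and holds the cytokine genes Il4, Il13 and Il5, the DNA repair gene Rad50 between them, and the neighbours Kif3a and Irf1. These 6 genes were chosen by name from the 22367 protein-coding genes of the GENCODE vM1 annotation of the NCBIM37 (mm9) assembly. The cluster was taken from the start of Kif3a to the end of Irf1 (chr11:53380881-53591876, 211.0 kb), and the window from 200 kb before it to 200 kb after it (chr11:53180881-53791876, 611.0 kb). Every peak of 11 deposited peak lists that shared at least 1 bp with the window was used.

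The lists map SATB1 and CTCF by chromatin immunoprecipitation and sequencing in cells of C57BL/6 mice that were wild type for Satb1. Urea ChIP-seq, a method that strips loosely held protein from crosslinked DNA by spinning it through dense urea, was done for SATB1 in brain cortex, thymocytes and skin keratinocytes (2 lists each, antibody 1583D) and for CTCF in thymocytes and skin (1 list each). Standard ChIP-seq of SATB1 in thymocytes gave 2 lists, which differ in antibody (ab109122 in list 1, 1583D in list 2) and in the 15 s and 150 s of their titles, so that these differences and the replicate cannot be told apart. The map of base-unpairing regions (BURs), 1 list, was made in vitro from naked thymocyte DNA and recombinant SATB1. The labels give the thymocyte and skin mice as 13 days old and the brain mice as 5 and 6 weeks old, but the protocol text gives 13 days for brain and 5 days for skin, and the titles of standard list 1 and of the thymocyte CTCF list give 6 weeks. The paper's methods give yet other ages, with skin from newborn mice and brain from mice of at least 6 weeks. The 2 brain lists share an experiment number in their titles, as do the 2 skin lists and the 2 thymocyte urea lists. The titles differ in cycles of an unnamed step for brain, in seconds for skin and in antibody amount for thymocytes. The brain labels also differ in age. The spread between lists may thus be technical or, in brain, go with age, and p-values measure only that spread. The lists hold called peaks without counts or expression, so the labelled cell types could not be checked against marker genes, and a peak's fold enrichment over its local background is not scaled between lists.

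Il4, Il5 and Il13 encode the signature cytokines of T helper 2 (Th2) cells: interleukin 4 drives Th2 differentiation and IgE production, interleukin 5 supports eosinophils, and interleukin 13 acts on airway epithelium and mucus. Their expression is coordinated by a locus control region that lies in the 3′ part of Rad50, and SATB1 is known for folding this locus into loops in activated Th2 cells. Thymocytes are immature T cells, and neither they nor cortical cells nor keratinocytes are Th2 cells. BURs are AT-rich stretches whose bases on one strand lack G or lack C over long runs, so that the double helix readily unpairs, and CTCF is a zinc finger protein that marks chromatin borders and loop anchors.

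The sequences show bound elements of the window and part of an unbound one. All are the plus strand of NCBIM37, and capitals mark the longest run without C or without G in the stretch shown. The first 4 are thymocyte urea SATB1 sites of the window that lie on a BUR, around the summit of their highest thymocyte peak. Site 2 (chr11:53188940-53189239) overlaps a coding exon of Aff4, site 12 (chr11:53690238-53690537) lies in an intron of Slc22a5, site 1 (chr11:53181380-53181574, cut before an untranslated exon) lies in an Aff4 intron, and site 13 (chr11:53707266-53707539) is intergenic. The Rad50 BUR (chr11:53507885-53508184, intronic) was covered in both brain lists, and the Il4 BUR, of which only the part outside exons is shown (chr11:53425769-53425961), was under no urea SATB1 peak. The Rad50 and Il4 stretches were added after their values were seen.
Site 2: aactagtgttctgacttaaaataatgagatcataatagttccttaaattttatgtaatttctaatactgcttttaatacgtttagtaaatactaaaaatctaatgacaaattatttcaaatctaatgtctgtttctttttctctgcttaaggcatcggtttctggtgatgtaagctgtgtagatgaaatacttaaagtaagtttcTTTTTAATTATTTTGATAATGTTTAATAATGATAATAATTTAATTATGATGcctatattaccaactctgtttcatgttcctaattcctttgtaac
Site 12: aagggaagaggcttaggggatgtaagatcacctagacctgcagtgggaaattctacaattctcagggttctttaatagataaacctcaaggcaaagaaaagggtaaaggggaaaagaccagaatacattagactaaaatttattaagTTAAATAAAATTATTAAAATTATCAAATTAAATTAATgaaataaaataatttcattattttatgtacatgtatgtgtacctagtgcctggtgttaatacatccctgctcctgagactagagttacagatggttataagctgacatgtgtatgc
Site 1: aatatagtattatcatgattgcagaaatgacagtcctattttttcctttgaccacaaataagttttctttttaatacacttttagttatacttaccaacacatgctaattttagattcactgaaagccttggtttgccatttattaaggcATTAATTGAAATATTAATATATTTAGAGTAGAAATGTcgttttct
Site 13: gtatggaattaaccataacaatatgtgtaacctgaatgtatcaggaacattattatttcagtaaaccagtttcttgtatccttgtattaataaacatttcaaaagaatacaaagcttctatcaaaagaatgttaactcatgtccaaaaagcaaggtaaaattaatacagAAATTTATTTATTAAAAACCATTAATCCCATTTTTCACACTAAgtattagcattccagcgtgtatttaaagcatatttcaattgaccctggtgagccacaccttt
Rad50 BUR: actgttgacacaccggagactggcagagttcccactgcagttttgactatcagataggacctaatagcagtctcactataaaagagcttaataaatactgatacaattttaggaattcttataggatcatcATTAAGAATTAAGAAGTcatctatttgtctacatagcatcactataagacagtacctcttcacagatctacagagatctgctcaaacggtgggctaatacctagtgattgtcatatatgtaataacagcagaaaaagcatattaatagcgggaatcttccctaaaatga
Il4 BUR: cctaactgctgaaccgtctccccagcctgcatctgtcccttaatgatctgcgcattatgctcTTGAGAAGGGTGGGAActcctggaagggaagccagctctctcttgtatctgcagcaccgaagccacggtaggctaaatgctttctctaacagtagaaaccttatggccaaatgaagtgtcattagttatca
The 4 thymocyte sites were 67.3% to 75% A and T, and their longest runs were 37 to 51 bp. The Rad50 stretch was 63.7% A and T with a longest run of 17 bp, and the Il4 stretch 51.3% with 16 bp. The Il4 values are those of the cut stretch: the whole Il4 BUR was 59.7% A and T with a longest run of 48 bp. Across the window, the median longest run was 39 bp in BURs under a brain peak. It was 59.5 bp in BURs under no urea SATB1 peak, so the Il4 stretch does not stand for them. Of the 6 stretches, only site 1 holds AATATATT, a palindrome of easily unpaired bases that was searched on both strands.

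BURs and urea SATB1 peaks were less dense in the window than over the genome, and standard SATB1 and CTCF peaks were denser. It held 24 BURs, or 39.3 per Mb, against 87.5 per Mb over chromosomes 1 to 19, X and Y, a ratio of 0.45. Brain SATB1 had 10 peaks in each list (16.4 per Mb, 0.37 and 0.40 times its density over the genome), thymocyte urea SATB1 5 and 4 peaks (0.48 and 0.45 times), and skin SATB1 2 in each list (0.79 and 0.82 times). Skin differed within the window, since both peaks of each list lay in the cluster, at 2.29 and 2.37 times the density over the genome. Standard SATB1 had 35 and 24 peaks (57.3 and 39.3 per Mb), 3.18 and 3.88 times its density over the genome, and CTCF had 13 peaks in thymocytes (2.79 times) and 16 in skin (2.23 times). The plot of density by list shows both directions. They are descriptions of 1 window and were not tested.

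**Figure D1:**
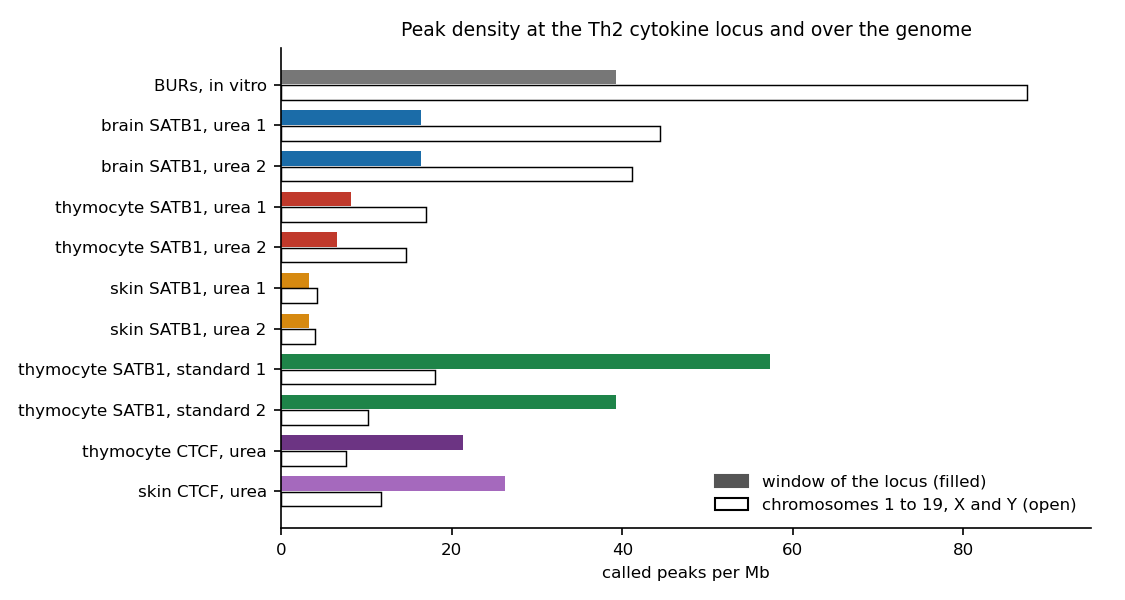
Called peaks per Mb in the window of the Th2 locus (filled bars) and over chromosomes 1 to 19, X and Y (open bars) for each of the 11 lists. The filled bar is shorter than the open bar for BURs and all 6 urea SATB1 lists, and longer for both standard SATB1 lists and both CTCF lists.

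The counts of urea SATB1 peaks followed the order of skin, thymocytes and brain, which is also the order of the list sizes over the genome. That order was known from the whole lists before the test, which asked only whether the window followed it. The means were 2 in skin (both lists), 4.5 ± 0.71 (SD, n = 2) in thymocytes and 10 in brain (both lists), and no list of one tissue overlapped another tissue in count (Jonckheere-Terpstra trend statistic, exact permutation p = 0.0111, one-sided, the smallest value among its 90 arrangements). The order rested on the flanks and on the list sizes: inside the cluster the counts were 3 and 3 in brain, 2 and 1 in thymocytes and 2 and 2 in skin (p = 0.2 by the same exact test). With each list reduced to its 10846 peaks of highest −log10 q, brain kept 1 and 1, thymocytes 0 and 0 and skin 2 and 2, and brain minus skin turned to -1.

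Merging the overlapping peaks of the 6 urea SATB1 lists gave 15 sites, numbered here by position: 7 in the cluster and 8 in the flanks. Brain had a peak in at least 1 list at 12 of them, thymocytes at 6 and skin at 2. Of the 6 thymocyte sites 5 also had a brain peak, and neither skin site had a urea SATB1 peak in brain or thymocytes. For BURs over the genome, the paper reports that brain shared nearly all those bound in thymocytes, and thymocytes most of those bound in skin. Only 4 of the 6 thymocyte sites and neither skin site lay on a BUR. The same shares over all sites, on a BUR or not, were not counted. The map of the 11 lists shows the sites as 1 group before Kif3a, 1 group after Irf1, and scattered sites between.

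**Figure D2:**
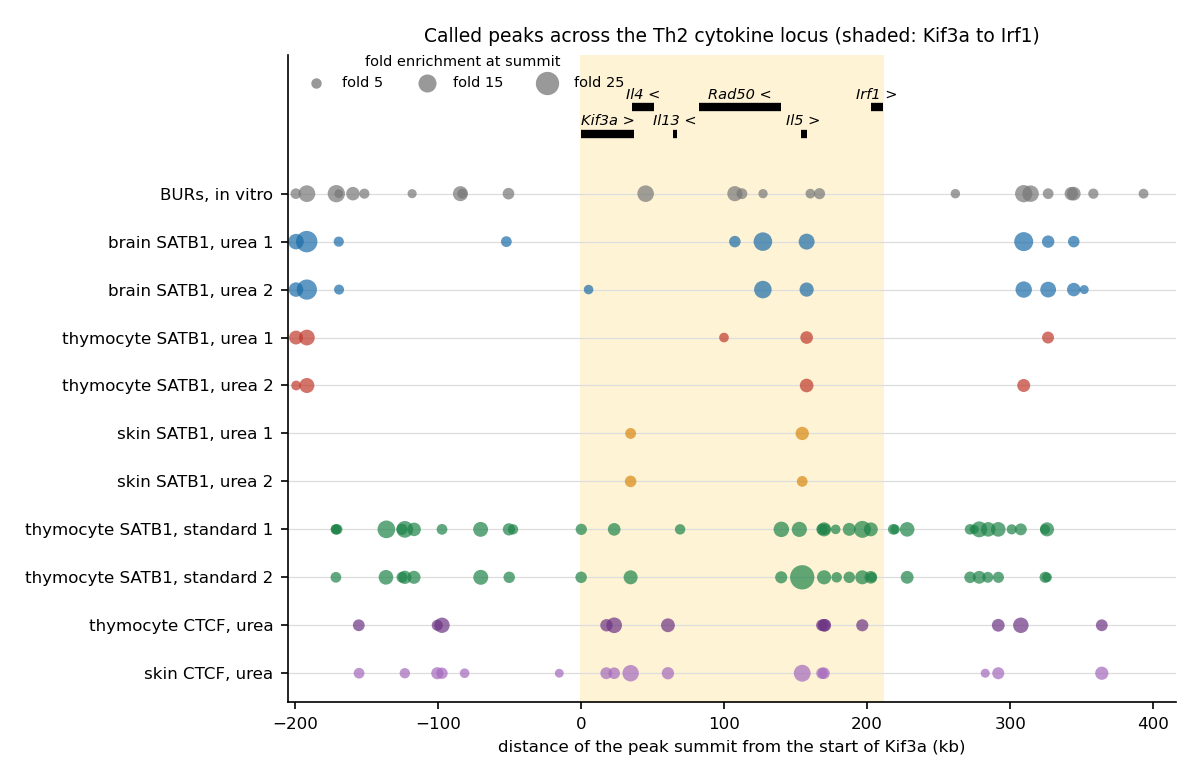
Summits of all called peaks by list (rows) against the distance from the start of Kif3a in kb, with the area of each point proportional to fold enrichment, the 6 genes drawn above with arrowheads for strand, and the cluster shaded. Thymocyte urea SATB1 has 2 and 1 peaks in the cluster, while standard SATB1 has 12 and 10 and CTCF 7 in each tissue.

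Il4 and Il13 had no urea SATB1 peak in the gene body in any of the 6 lists. Lacking a peak was common among genes. In brain, 48% of protein-coding genes had one in both lists in the gene body or within 10 kb. The shares were 31.4% in thymocytes and 14% in skin. The share of genes without a peak in any list was not counted. Il4 (chr11:53416484-53432171, minus strand) had its nearest thymocyte urea peak 48536 bp from the gene in list 1 and 106215 bp away in list 2, and its nearest brain peak 55948 bp and 30208 bp away. Its nearest skin peaks were 982 bp and 978 bp beyond its annotated 3′ end, at site 6 in the facing gene Kif3a. That end is set by a longer Il4 transcript. The BUR that overlaps the last coding exon of Il4 was 10263 bp from site 6. Il13 (chr11:53444826-53448204, minus strand) had its nearest thymocyte urea peak 32503 bp and 90182 bp away. A stretch of 65.2 kb that holds both genes (chr11:53415507-53480706) was free of urea SATB1 peaks in every list, and held 1 BUR, 1 thymocyte CTCF peak and 1 skin CTCF peak. Its standard SATB1 peaks were 1 in list 1 (fold enrichment 5.03, 1824 bp upstream of Il13) and 0 in list 2. How often stretches of this length are free of urea SATB1 peaks over the genome was not counted.

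Il5 was the cytokine gene with SATB1 peaks, at different places in different lists. Site 11 (chr11:53538308-53538847) covers the 3′ untranslated end of Il5 and the first bases after it. Its fold enrichment was 11.7 and 9.28 in brain and 7.37 and 8.58 in thymocytes, and it was absent in skin. It is the only site of the cluster found in both lists of more than 1 tissue, and it lies on no BUR: the nearest BUR was 2179 bp away. The nearest standard SATB1 peaks were 4722 bp and 2676 bp from it, and the nearest thymocyte CTCF peak 10268 bp.

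Site 10, in a coding exon and intron of Il5, had a fold enrichment of 8.17 and 5.32 in skin and no urea SATB1 peak in brain or thymocytes. The skin peaks begin 967 bp and 965 bp after the start site of Il5. Site 6 (chr11:53415269-53415506), in the 3′ untranslated part of Kif3a, had 5.45 and 6.14 in skin and was also absent from brain and thymocyte urea SATB1. Kif3a (chr11:53380881-53417746) encodes a subunit of the kinesin motor that builds cilia.

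Both skin sites were shared with lists of other factors or preparations, and were on no BUR. At site 10 the skin CTCF list had a fold enrichment of 13.1 and standard SATB1 list 2 had 27.2, the highest of that list in the window. At site 6 these values were 12.4 and 9.07. Neither site had a peak in standard SATB1 list 1 or in thymocyte CTCF. Over the genome, 12.8% and 12.1% of the skin SATB1 peaks of lists 1 and 2 overlapped a skin CTCF peak. Of the 11210 peaks of skin list 1, 820 (7.31%) were shared with skin list 2, skin CTCF and standard list 2 together, and 197 (1.76%) were in addition absent from brain, thymocyte urea SATB1, thymocyte CTCF and standard list 1, as both skin sites of the window were. The CTCF core consensus was not found in the skin CTCF peak at either site. The cause of this shared pattern was not tested.

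Rad50 (chr11:53463021-53520821, minus strand), a subunit of the MRN complex of double-strand break repair, held 3 urea SATB1 sites, none of them in both lists of thymocytes. Site 9 (chr11:53507634-53508275, intronic) had fold enrichments of 15.9 and 14.2 in brain, the highest in the cluster, and no peak in thymocytes or skin. It lies on a BUR of in vitro fold enrichment 3.98, under the median of 5.60 for the window, and within 1 kb of the annotated start of a short noncoding Rad50 transcript. Site 8 (chr11:53488119-53488533) had 6.14 in brain list 1 alone, on a BUR of in vitro fold 10.6. Site 7 (chr11:53480707-53480946, intronic) had 4.32 in thymocyte list 1 alone, on no BUR.

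Site 5 (chr11:53385974-53386276), in an intron of Kif3a, was found in brain list 2 alone at 4.20. Irf1 (chr11:53583516-53591876), a transcription factor of the interferon response, lay in a stretch of 151.3 kb (chr11:53538848-53690147) without a urea SATB1 peak in any list. That stretch held 3 BURs, 17 and 11 standard SATB1 peaks, 6 thymocyte CTCF peaks and 4 skin CTCF peaks. For peaks found in both thymocyte lists, the longest empty stretch ran 348.9 kb, from site 2 in Aff4 to site 11 in Il5, and contained Kif3a, Il4, Il13 and Rad50 whole. Empty stretches of these lengths were not counted over the genome.

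The strongest urea SATB1 site of the window lay in a flank and on a BUR. Site 2, in Aff4, an elongation factor gene, had 21.1 and 18.8 in brain and 11.5 and 10.4 in thymocytes, the highest mean of either tissue in the window. Site 1, also in Aff4, had 11.1 and 9.72 in brain and 8.89 and 4.42 in thymocytes. At sites 1, 2 and 11, the 3 found in both lists of 2 tissues, every brain value was above every thymocyte value, though the lists are not scaled to each other. Over the whole lists the median fold was 7.05 and 7.29 in brain and 7.62 and 7.80 in thymocytes. The share of shared sites with this order over the genome was not counted. Skin had no site in the flanks. Site 12, in the carnitine transporter gene Slc22a5, and site 13, 2054 bp from it, were in both brain lists (16.7 and 12.4 at site 12, 7.09 and 11.5 at site 13) but in 1 thymocyte list each (7.80 in list 2, 6.61 in list 1). The remaining 4 flank sites were brain sites without a thymocyte peak.

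**Figure D3:**
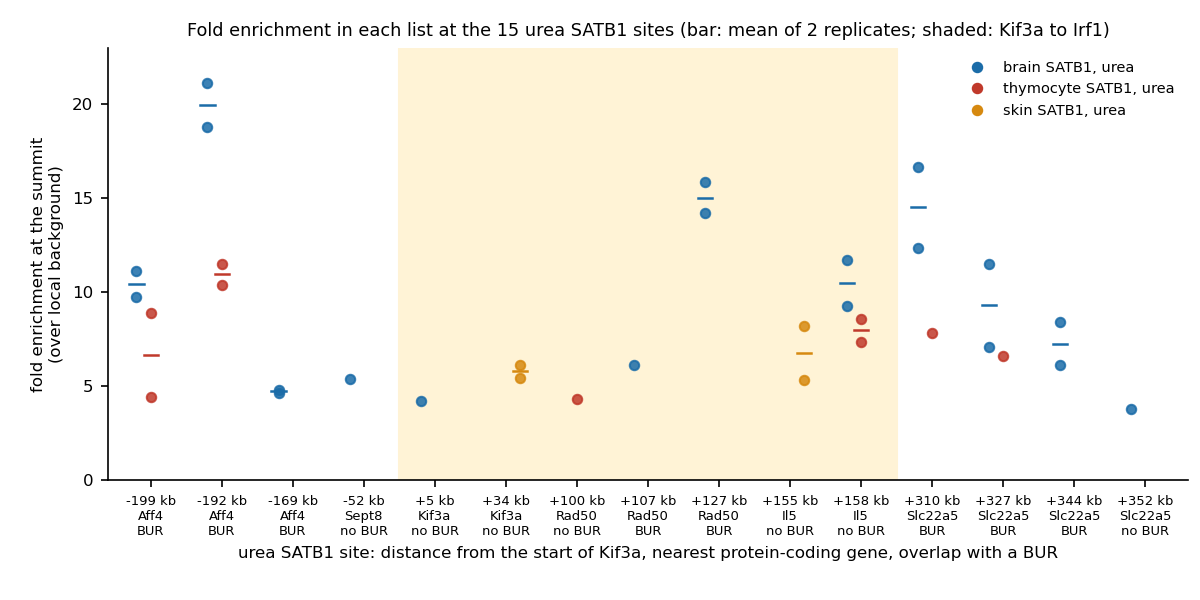
Fold enrichment over local background (y axis) in each urea SATB1 list at the 15 sites (x axis, by distance from the start of Kif3a in kb, with nearest gene and BUR overlap), points for replicates and bars for the mean of 2. Site 2 in Aff4 has the highest values, 21.1 and 18.8 in brain, and skin has points at 2 sites only, both without a BUR.

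BURs are the sites that recombinant SATB1 binds on naked DNA, so their overlap with urea peaks shows which of them were covered in cells. Of the 24 BURs of the window, 8 were under a urea SATB1 peak in at least 1 list and 16 were under none (59.5% of all BURs were under none). Brain lists covered 33.3% and 29.2% of the window's BURs (37.2% and 34.2% of all BURs), thymocyte lists 12.5% each (14.6% and 12.9%), and skin lists 0% each (3.71% and 3.64%). The order of skin, thymocytes and brain held without overlap (31.3 percentage points from skin to brain, exact one-sided permutation test over 90 arrangements, p = 0.0111, the smallest it can give). That order was known from the whole lists before the test, so the p-value does not show a trait of the locus. With lists of equal size the difference was 4.17 percentage points (exact p = 0.0667), and in the cluster alone 25 (exact p = 0.0667).

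Counting BURs covered in both lists, brain covered 7 of 24 (31.4% of all BURs), thymocytes 2 (11.3%) and skin 0 (3.12%). The shares in the window were close to those over the genome in brain and thymocytes. Every BUR covered in thymocytes was also covered in brain, as the paper reports for nearly all such BURs over the genome.

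In the cluster 2 of 6 BURs were covered, both in Rad50 and both in brain lists alone. The Il4 BUR (chr11:53425769-53426217) reaches from the last coding exon and 3′ untranslated part of Il4 into sequence that is an intron of a longer Il4 transcript. It had an in vitro fold enrichment of 12.7, the highest of the cluster, and no urea or standard SATB1 peak in any list. Strong and weak BURs were both found with and without cover. Of the 7 BURs with an in vitro fold of at least 10, a limit set after the values were seen, 4 were under no urea peak (50.1% of all such BURs), among them the strongest of the window, in Aff4 (chr11:53209341-53209987, 13.8). Of the 17 weaker BURs, 5 were covered in at least 1 list (38.4% of all BURs of fold under 10).

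**Figure D4:**
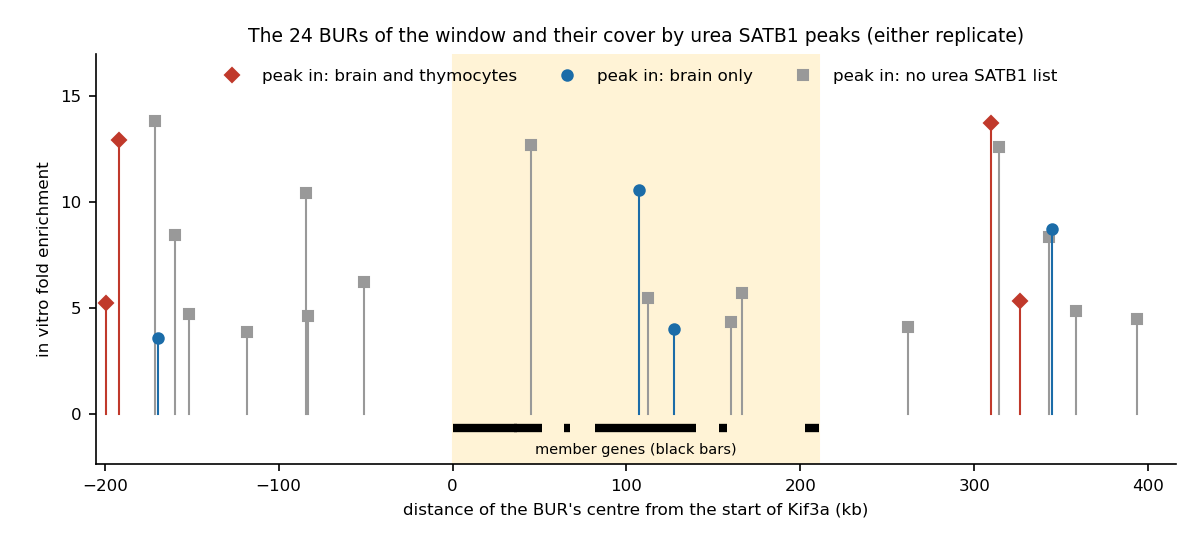
In vitro fold enrichment (y axis) of the 24 BURs against their distance from the start of Kif3a in kb, coloured by the tissues with a urea SATB1 peak on them in either list (red diamonds brain and thymocytes, blue circles brain only, grey squares none), with the 6 genes as black bars. Of the 7 BURs at 10 or more, 4 are grey, including the one at Il4.

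The 4 BURs covered in either thymocyte list had a median in vitro fold of 9.14 and a median A and T content of 70.0%. The other 20 had 5.60 and 65.0%. Over all BURs these medians were 8.17 and 69.7% for covered and 5.53 and 70.9% for not covered, so that the difference in A and T content seen in the window had the opposite sign over the genome. The longest run without C or without G had a median of 40 bp in the covered and 51.5 bp in the other BURs of the window (39 bp and 43 bp over all BURs). The window's BURs as a group had a median A and T content of 66.0% against 70.7% for all, a median length of 434.5 bp against 439 bp, and held AATATATT in 5 of 24 (20.8%) against 12.3%. The CTCF core consensus, searched on both strands, was in 4 of the 24 BURs (16.7%) against 2.41% of all BURs.

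Urea and standard SATB1 ChIP-seq of thymocytes mapped different positions of the locus. Of the urea peaks, 3 of 5 and 3 of 4 lay on a BUR, 67.5% ± 10.6 (SD, n = 2), against 75.8% and 77.6% of the whole lists. Of the standard peaks, 2 of 35 and 1 of 24 did, 4.94% ± 1.09, against 3.78% and 5.2%. The difference was 62.6 percentage points, and the shares did not overlap (exact two-sided permutation test, p = 0.333, the smallest that 2 against 2 lists allow). With flanks of 100 kb the difference was 23.1 and the shares overlapped (exact permutation p = 1). In the cluster itself none of the 2 and 1 urea peaks and none of the standard peaks lay on a BUR, so the difference came from the flanks. None of the 35 and 24 standard peaks overlapped a thymocyte urea SATB1 peak (1.06% and 1.43% of the whole lists did). For the other tissues, 8 and 7 of the 10 brain peaks lay on a BUR (73% and 72.8% of the whole lists) and 0 of 2 in each skin list (78.4% and 79.4%).

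Standard SATB1 peaks lay over the start sites of Kif3a, Rad50 and Irf1 in both lists, and over those of no cytokine gene in both. Kif3a had a peak over its start site at fold 5.87 in list 1 and 6.10 in list 2. Rad50 had 11.1 and 6.80 over its main start site, and Irf1 8.93 and 7.40. These were 3 of the 6 genes, against 41% of all protein-coding genes with a standard peak within 1 kb of a start site in both lists. Il4 and Il13 had no standard peak within 1 kb of a start site in either list. Il5 had one in list 1 alone, 710 bp before its start (10.6), while the list 2 peak of site 10 begins 1025 bp after it, so that the count became 4 at a distance of 2.5 kb through different peaks in the 2 lists.

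The strongest standard peak found in both lists in the cluster lay 5825 bp before Irf1 (chr11:53576838-53577691), with 13.3 in list 1 and 9.10 in list 2. It overlaps a CTCF peak of thymocytes (6.79) that skin lacks. Between Il5 and Irf1, the other standard peaks found in both lists lay on a CTCF peak of both tissues at chr11:53550511-53550952 (9.20 in each list) and, without a CTCF peak, 14789 bp before Irf1 (7.72 and 6.09). In all, 20 of the 35 peaks of list 1 were in list 2 and 21 of the 24 peaks of list 2 were in list 1.

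On CTCF peaks of thymocytes lay 8 of 35 and 3 of 24 standard peaks, 17.7% ± 7.32 (SD, n = 2), against 22.2% and 18% of the whole lists. In the cluster these were 5 of 12 and 2 of 10, 30.8% on average. No urea SATB1 site of brain or thymocytes had a CTCF peak of either tissue. The paper reports that overlap with CTCF was also rare over the genome for thymocyte urea SATB1. The shares for brain, and for either tissue on skin CTCF peaks, were not counted here, so the window cannot be set against them. None of the CTCF peaks of the window lay on a BUR (2.9% of thymocyte and 4.29% of skin CTCF peaks over the genome).

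CTCF positions of the locus were largely the same in thymocytes and skin. Of the 13 thymocyte CTCF peaks, 11 were shared with skin (84.6%, exact 95% binomial interval 54.6% to 98.1%, which covers counting error only), against 83.5% of the whole list. Of the 16 skin peaks, 10 were shared with thymocytes (53.5% of the whole list).

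In the cluster, thymocytes had 7 CTCF peaks. Kif3a introns held a pair, at chr11:53398389-53398665 (7.06 in thymocytes and 6.53 in skin) and chr11:53403782-53404093 (11.3 and 6.24). The peak at chr11:53441404-53441709, between Il4 and Il13 and 3117 bp from the end of Il13, had 8.82 and 7.0. A group between Il5 and Irf1 lay at chr11:53549115-53549427 (6.33 and 5.98), chr11:53550580-53550924 (7.33) and chr11:53551125-53551431 (7.29), the latter pair under a single wide skin peak of 6.27 (chr11:53550498-53551528). The peak at chr11:53577445-53577685 (6.79), on the standard SATB1 peak before Irf1, was the only one of the 7 without a skin peak. Skin had 2 CTCF peaks in the cluster that thymocytes lacked, the ones at sites 6 and 10.

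The 4 CTCF peaks of the cluster with the highest thymocyte fold among those shared with skin are shown by 60 bp around their thymocyte summit, the plus strand of NCBIM37, with a match to the CTCF core consensus in capitals where these bases hold one. CTCF peak 1 is chr11:53403908-53403967 in Kif3a, peak 2 chr11:53441513-53441572 between Il4 and Il13, and peaks 3 and 4 chr11:53550722-53550781 and chr11:53551236-53551295 between Il5 and Irf1.
CTCF peak 1: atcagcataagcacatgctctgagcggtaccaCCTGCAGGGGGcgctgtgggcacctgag
CTCF peak 2: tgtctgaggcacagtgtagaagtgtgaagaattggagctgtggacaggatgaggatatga
CTCF peak 3: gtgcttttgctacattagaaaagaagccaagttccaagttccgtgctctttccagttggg
CTCF peak 4: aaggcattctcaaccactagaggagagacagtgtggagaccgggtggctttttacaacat
The consensus was found near the summit of peak 1 alone. Another match there, on the minus strand, overlaps the capitals and is not marked in full. Over their whole length 9 of the 13 thymocyte CTCF peaks of the window held it (61.4% of the list) and 9 of the 16 skin peaks (48.3%), with no match in peak 2.

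Other genes of Th2 and Th1 cells were compared with the locus from lists chosen by name. Of 20 Th2 genes, 6 had a urea SATB1 peak in both thymocyte lists in the gene body or within 10 kb, namely Maf, Satb1, Il5ra, Gfi1, Il1rl1 and Il10, against 31.4% of protein-coding genes. Of 12 Th1 genes, 3 did, namely Stat4, Il12rb2 and Il2. Of the 6 genes of the locus, only Il5 did. In brain 7 of 20 Th2 genes, 6 of 12 Th1 genes and Rad50 and Il5 of the locus had such peaks (48% of protein-coding genes), and in skin 4, 1 and 3, the last being Kif3a, Il4 and Il5 through sites 6 and 10 (14%). Il4 counted in skin by its annotated end, which a longer transcript sets.

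The highest fold enrichment near Il10, the gene of an anti-inflammatory cytokine, was 18.6 and 22.7 in thymocytes, 24.7 and 23.5 in brain and 8.38 and 8.77 in skin. Near Satb1 itself it was 17 and 14.5 in thymocytes, 19.7 and 16.1 in brain and 29.6 and 29.1 in skin. Near Gfi1, a transcriptional repressor, it was 11.3 and 14.3 in thymocytes, 6.90 and 8.17 in brain and 4.82 and 4.91 in skin. Gata3 and Stat6, the factors that induce and activate the Th2 programme, had no urea SATB1 peak in these limits in any list. The only Th2 genes with a urea SATB1 peak within 1 kb of a start site in both lists of a tissue were Satb1 and Il1rl1, in each of the 3 tissues (6.65%, 2.88% and 0.934% of protein-coding genes in brain, thymocytes and skin). Of the locus only Rad50 in brain and Il5 in skin had one. The Rad50 peak lay at the start of a short noncoding transcript inside the gene, not at its main start site.

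Standard SATB1 peaks stood at a start site in both lists in 10 of 20 Th2 genes, among them Gata3, Stat6, Maf and Il4ra, and in 4 of 12 Th1 genes, against 41% of protein-coding genes. Thymocyte CTCF peaks stood at a start site in 3 Th2 genes, 2 Th1 genes and 0 of the 6 genes of the locus (14.1% of protein-coding genes). Skin CTCF peaks stood at 3, 0 and 1, the last Il5 (17.3%), and BURs at 1, 1 and 1, the last Rad50 (15.1%), at start sites inside the gene and not at its main one.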

How the data were processed

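ChIP-seq reads were mapped by the authors to mm9 with Bowtie2 2.3.1, and peaks were called by MACS2 2.2.7 (q-value 0.01), per the study's methods and the labels. Each deposited list gives, per peak, the fold enrichment as a ratio to local background, the −log10 p and −log10 q, a display score made by the authors' peak caller (not used) and the summit. Whether an input library entered the calls is not given in the sources used here. No counts are held, so depth is unknown. The other 27 samples are not analysed here.

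An overlap needed 1 bp in common, and start sites were the 5′ ends of all annotated transcripts. Shares of BURs and genes are over chromosomes 1 to 19, X and Y, and shares of peaks over whole lists. Gfi1, which the annotation does not type as protein-coding, was taken by name. Python 3.11.15, numpy 2.4.6, scipy 1.17.1, pysam 0.24.0 and matplotlib 3.10.9 were used, and overlaps and exact tests were tested on simulated data. The genes, lists and tests were chosen with earlier results of these data known. By rule, the 6 genes, every urea SATB1 site of the cluster, flank sites in both lists of 2 tissues, the highest site of each tissue, standard or CTCF peaks at start sites of the 6 genes, CTCF peaks of the cluster and the strongest standard peak there were named, and other sites or genes were named after their values were seen. The replicates of thymocyte urea SATB1 are numbered as in the sample titles. The sequence of site 10 is not reported here.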

Additional observations from a re-analysis of the deposited data

How the results depend on the processing

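The brain minus skin difference in urea SATB1 peaks was 8 and kept its direction and its side of 0.05 with flanks of 500 kb, a −log10 q of at least 5, or peaks on BURs alone. It was 2.5 with flanks of 100 kb (exact permutation p = 0.0667), 1 without flanks (exact p = 0.2) and reversed to -1 with lists of equal size. Leaving out any 1 list gave 8 in every case. For covered BURs, the difference of 31.3 percentage points became 25 without flanks and 4.17 with lists of equal size (exact p = 0.0667 for each). Without any 1 list it was between 29.2 and 33.3. The replicate numbers pair no animals in the labels. With permutation within them (replicate block) the differences were 8 and 31.3 with exact p = 0.0278 for each, and urea minus standard 62.6 with exact p = 0.5, so no call changed. Urea minus standard on BURs was 0 without flanks, 23.1 with flanks of 100 kb (exact permutation p = 1, shares overlapping) and 55.1 to 70.1 without any 1 list. Standard peaks on thymocyte CTCF peaks were 30.8% without flanks and 12.5% to 22.9% without a list. The count of 3 genes with a standard start-site peak was 3 to 4 without a list. Shared CTCF peaks stayed between 73.1% and 85.7%. Counts of 24 BURs and 2 to 35 peaks limit every share, and with no read counts no site can be called absent below the peak callers' threshold.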
